A study of Mus musculus with 18 samples.

Results

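Hearts taken 72 h after coronary ligation were compared with hearts taken 24 h after it, on the peaks of methylated DNA found in each heart. The comparison used 6 of the 18 libraries of the series, chosen by their labelled group: 3 at 72 h and 3 at 24 h. All mice were male C57BL/6JR animals of 12 weeks, 3 to a group, operated on under sodium pentobarbital and later anaesthetised with isoflurane before tissue was taken. In both groups a suture closed the left anterior descending coronary artery, the vessel that feeds the front wall of the left ventricle, so both groups carried an infarct and differed in its age. In the 3 sham libraries, cited below only as a description, the suture was passed and left untied, and the other 9 libraries came from earlier times (10 min, 1 h and 6 h). By its labels the tissue is myocardial and the cell type cardiomyocytes, but the labels describe no isolation of cells and do not say whether the infarct or the wall beside it was sampled. DNA from such tissue mixes all cell types, so a change in the mix of cells and a change of methylation within cells cannot be told apart, and peaks of methylated DNA offer no marker by which the labelled cell type could be checked.

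DNA methylation is the addition of a methyl group to cytosine, in body cells mainly where a C is followed by a G (a CpG). Promoters rich in CpG are as a rule free of it, gene bodies and most other sequence carry it, and different cell types carry it at different places. MeDIP-seq pulls down sheared DNA with an antibody against methylated cytosine and sequences it, so that a peak marks a place where methylated fragments pile up; it does not give the percentage of methylated molecules. In the infarcted mouse heart the first day is known for muscle death and the entry of neutrophils, and the third day for monocytes and macrophages, dividing fibroblasts and vessel cells and the start of scar formation.

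The lists of the 3 libraries at 72 h held 58992, 60653 and 48608 peaks, and those at 24 h held 47244, 51063 and 47281. The lowest 72 h library lay between the 24 h libraries, and the difference in means of 7555 peaks was within the spread of the replicates (exact permutation p = 0.2, adjusted p = 0.36 over 6 measures; n = 3 against 3, where the smallest possible p is 0.1). Peaks covered 54.3, 63.0 and 54.7 Mb at 72 h against 45.8, 56.4 and 50.3 Mb at 24 h (difference 6.51 Mb, exact permutation p = 0.3). This difference was 3.67 Mb without 72 h replicate 2 and 3.99 Mb without 24 h replicate 1. Depth is unknown, since reads were not used. Because longer lists hold more weak peaks, the counts below are also given for equal lists, the 47244 peaks of highest score from each library, which takes out list length together with any true net gain or loss. The score is the authors' own value per peak, with a minimum of 50. It was read as 10 times the negative log10 of the caller's p-value, a scale that the sources used here do not state.

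Peaks at 72 h lay more often in and beside genes. The share of peaks touching a gene of any type was 59.2%, 58.0% and 57.0% at 72 h and 56.5%, 56.8% and 56.4% at 24 h. Every 72 h library was above every 24 h library, the last of them narrowly. The means were 58.0% ± 1.09 and 56.5% ± 0.210 (SD, n = 3 each), a difference of 1.49 percentage points with the smallest exact permutation p the design allows (p = 0.1, adjusted p = 0.3). Without 72 h replicate 1 the difference was 0.938 points. With equal lists it was 0.799 points, 57.2% ± 0.528 against 56.4% ± 0.0732 (exact permutation p = 0.1). Sham libraries had 57.0% ± 0.927 (SD, n = 3), between the groups.

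Gene ends showed the same order. A gene end is the stretch from 2000 bases outside to 500 bases inside either end of a protein-coding gene. They were touched by 6.47%, 6.31% and 6.16% of the peaks at 72 h and by 5.69%, 5.97% and 5.86% at 24 h. The ranges did not overlap, and the difference of 0.472 points again gave the smallest exact permutation p (p = 0.1, adjusted p = 0.3). It was 0.408 points with equal lists. When the window was narrowed to the side of the gene start, from a table of starts with strand that covers 17492 of the 21887 protein-coding genes, 72 h libraries had a share of 2.53% ± 0.0875 and 24 h libraries one of 2.41% ± 0.0479 (SD, n = 3 each; exact permutation p = 0.1). By gene type, peaks touching protein-coding genes made up 48.2% ± 1.18 at 72 h and 46.3% ± 0.245 at 24 h. Peaks touching long noncoding RNA genes went the other way, 9.35% against 9.59%, also without overlap of the ranges (exact permutation p = 0.1 for each of these). None of these shares passed the 0.05 threshold, which 3 against 3 libraries cannot reach.

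**Figure D1:**
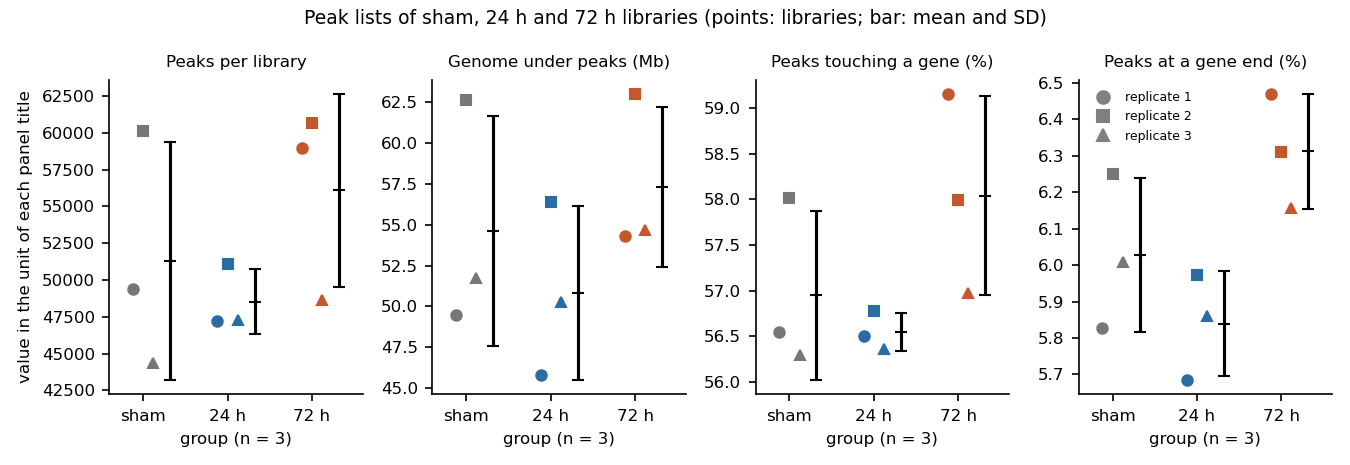
Each point is 1 library, with the replicate number by its shape, and the cross line and bar beside the points are the mean and SD, for sham, 24 h and 72 h (n = 3 each); each panel is one measure with its own axis, none of which starts at 0. The groups at 24 h and 72 h overlap in peak number and covered length and lie apart in the percentage of peaks touching a gene (means 56.5% and 58.0%) and a gene end (5.84% and 6.31%).

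Sharing of peak sequence was as high across the groups as inside them. The Jaccard index, the bases under peaks of both libraries divided by those under peaks of either, was 0.372 ± 0.0169 for the 3 pairs within 72 h, 0.366 ± 0.00904 for the 3 pairs within 24 h and 0.368 ± 0.0145 for the 9 pairs between them. Pairs within groups exceeded pairs between groups by 0.000297 (one-sided exact permutation p = 0.6 over 10 splits). That difference was -0.00172 with equal lists and changed sign also without 72 h replicate 1, 72 h replicate 3 or 24 h replicate 3 (-0.00296, -0.000916 and -0.00224). Of the peaks of the 24 h libraries, 59.0%, 55.9% and 58.0% overlapped a peak of another 24 h library, as an average over the single libraries. A larger share, 63.6%, 61.5% and 61.1%, overlapped a peak of a 72 h library, averaged in the same way. The 72 h lists were longer on average. For the 72 h libraries the order was the other way, with 57.3%, 55.8% and 62.8% in another 72 h library and 53.0%, 53.1% and 55.9% in a 24 h library. The most similar pair of all, at 0.395, joined the groups, so no library was a copy of another.

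Merged, the 6 lists made 114917 regions, of median width 992 bases. Most differed between single mice: 43785 regions (38.1%) had a peak in 1 library alone, and 14722 (12.8%) had one in all 6. A region is called higher at 72 h where all 3 libraries at 72 h and 0 of 3 at 24 h had a peak, and lower at 72 h in the opposite case. With all peaks 1094 regions (0.952%) were higher and 443 (0.385%) were lower. With equal lists, which merge into 104926 regions, the numbers were 659 (0.628%) and 644 (0.614%), so the surplus of higher regions was not there at equal list length. On the same regions, 604 of the 1094 higher and 397 of the 443 lower ones kept 3 libraries against 0 when each list was reduced to its top 47244 peaks. That number is the length of a 24 h list, so the cut took more peaks from the 72 h group. The lowest scores kept were 58.83, 59.54 and 50.88 at 72 h and 50, 52.53 and 50.02 at 24 h. Lower calls were thus easier to keep, and the shares kept cannot be compared between the directions. Leaving out a library asks for 2 against 0 in place of 3 on one side, and gave 1929 to 3749 higher and 841 to 1542 lower regions. Presence in 3 libraries against 0 cannot survive adjustment over so many regions, so what follows describes which regions met the call.

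**Figure D2:**
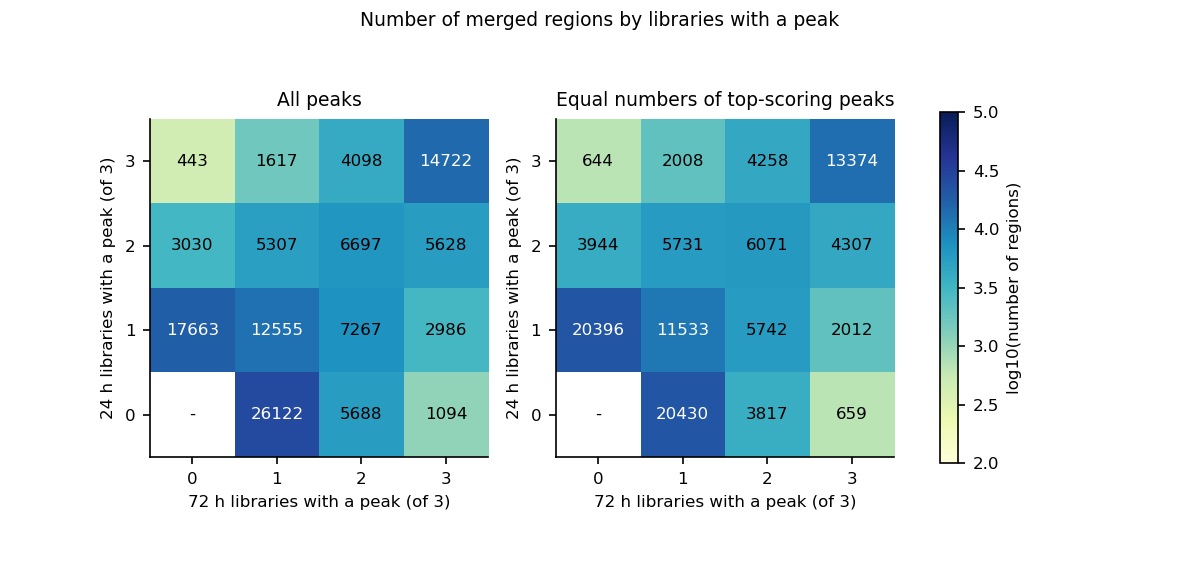
Number of merged regions by how many of the 3 libraries at 72 h (horizontal) and of the 3 at 24 h (vertical) had a peak there, with all peaks (left) and equal lists (right); colour follows the number on a log scale. The corner cells for 3 against 0 hold 1094 higher and 443 lower regions with all peaks, and 659 and 644 with equal lists.

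Called regions were weak beside those shared by all 6 libraries, and so were other regions found in 3 of the 6. The median of the lowest of the 3 scores was 56.9 in higher and 55.8 in lower regions, close to the minimum of 50. It was 56.5 in regions found in 3 of the 6 libraries in a mixed pattern. In regions with a peak in all 6 libraries the median was 69.9, there the lowest of 6 scores. Higher regions were the more often genic class: 67.5% of them touched a gene, against 60.3% of lower and 59.4% of all regions. With equal lists the values were 67.1%, 57.8% and 58.9%. At gene ends lay 7.68% of higher, 5.87% of lower and 6.44% of all regions. These shares restate per region what the libraries showed per peak, and no test was run on them.

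Few of these regions were absent from hearts of the other groups. A higher region had a peak in 40.7% of sham libraries on average and a lower region in 42.4%, close to the 42.2% of the 12574 regions found in 3 of the 6 libraries in a mixed pattern. All 3 sham libraries had a peak in 130 of the higher and 60 of the lower regions, and 0 of 3 had one in 295 and 115. The averages for higher and lower regions were 33.8% and 38.0% in the 10 min libraries. They were 32.9% and 37.1% in the 1 h libraries, then 30.7% and 33.0% in the 6 h libraries. Regions present in all 6 libraries were found in 91.5% of sham libraries.

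By the lowest of its 3 scores, the first of the higher regions within a gene lay on chromosome 6 in Calcr, the receptor of the hormone calcitonin (chr6:3687151-3687857, mm10, as all positions here). Its scores at 72 h were 206.03, 105.25 and 164.85, and it had no peak at 24 h and a peak in all 3 sham libraries. Tm4sf19, which encodes a membrane protein with 4 membrane-spanning stretches, followed with scores of 107.03, 104.38 and 145.67 (chr16:32405258-32406441). It too had a peak in 3 of 3 sham libraries, so at both places the 24 h hearts stood apart from sham and the 72 h hearts did not. Under a rule that at least 50% of the region must be covered, 10 of the 12 highest-ranked higher regions kept 3 libraries at 72 h, and that at Ncaph was left with 2.

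The rest of the 12 highest-ranked genic regions lay in genes of varied roles. Kalrn, a guanine nucleotide exchange factor, had scores of 103.58, 92.76 and 94.42 (chr16:34024849-34026433). Rassf5, a Ras and Rap effector of lymphocyte adhesion, had 102.39, 113.85 and 93.21 (chr1:131223614-131224438). Plin3, a coat protein of lipid droplets, had 91.56, 99.6 and 83.49 (chr17:56283308-56284906). Scores far above the minimum in each 72 h library follow from the ranking by the lowest score. Ncaph, a subunit of the condensin complex that packs chromosomes for division, was ranked both here and at a gene end (138.17, 83.83 and 97.93; chr2:127103499-127104616). Hoxa2, a homeobox gene that patterns the hindbrain and neural crest, had 111.84, 83.54 and 93.56 (chr6:52163182-52163941). The region within Hoxa2 had a peak in 0 of the 12 libraries of the other 4 groups and was thus found in the 72 h hearts alone. The others of the 12 lay in Sbspon, C2cd3, Snd1 and where Hcfc2 meets Nfyb, a subunit of the CCAAT-binding factor NF-Y, with scores between 86.5 and 119.85.

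Among lower regions within a gene the first by the same rank was in Atp10a, a phospholipid flippase (chr7:58772418-58772949), with 24 h scores of 90.5, 102.31 and 111.62 and no peak at 72 h. Ranked beside it was Bmp10, which encodes a ligand of the bone morphogenetic protein family that is made in the heart and supports the growth of its muscle. Its scores at 24 h were 86.45, 88.67 and 97.8 (chr6:87433404-87434616), at a gene end, and 1 of 3 sham libraries had the peak. Gpr176, a receptor of the circadian clock, also had its 24 h peak at a gene end (87.07, 87.77 and 101.6; chr2:118374213-118375279). For both, a strong peak in each 24 h heart and none at 72 h follow from the call and the ranking. Pde1c, a calmodulin-dependent phosphodiesterase of muscle, had 105.79, 105.68 and 83.74 (chr6:56226799-56227514). Ptprr, a phosphatase acting on MAP kinases, had 75.45, 71.44 and 100.15 (chr10:116095583-116097284). Prickle1, of the planar cell polarity pathway, had 85.68, 74.17 and 129.39 (chr15:93531967-93533426). The others of the 12 were Glmn, Fmn2, Ddx10, Nipbl, Exoc4 and Mrpl9, with scores between 71.4 and 128.15. All 12 kept 3 against 0 with 50% cover, whereas their passing of equal lists and of a score of 70 follows from how they were ranked and chosen.

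**Figure D3:**
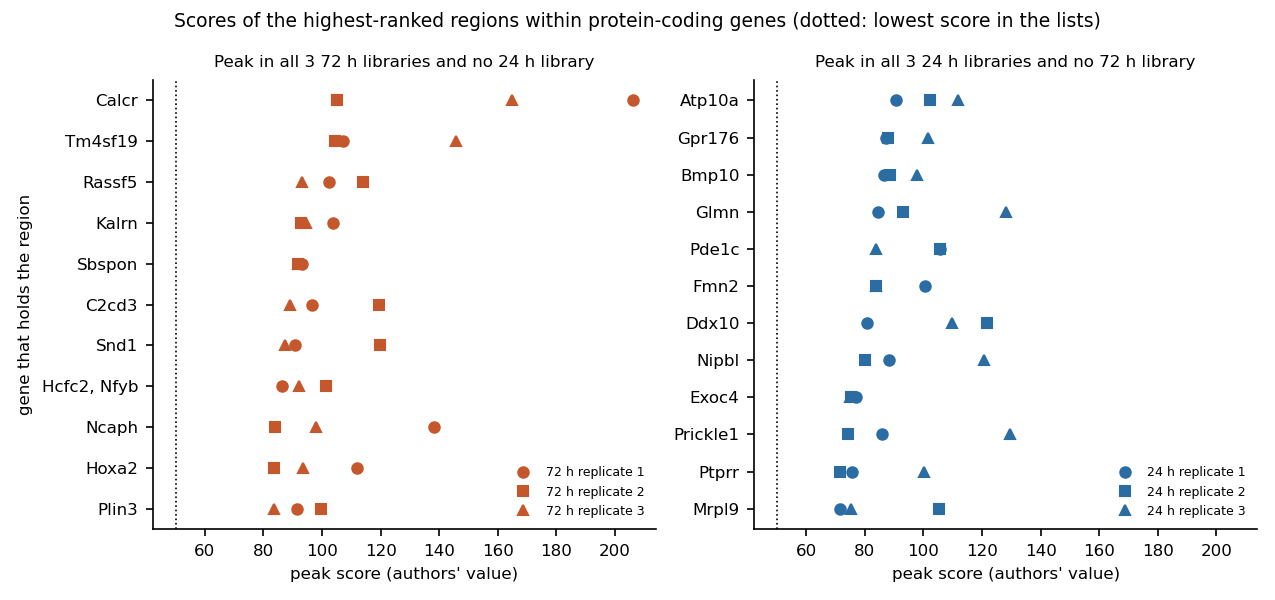
Horizontal axis, the authors' score of the peak; vertical axis, the gene that holds the region, for 11 of the 12 highest-ranked higher regions (left, 72 h scores) and the 12 highest-ranked lower regions (right, 24 h scores). Each point is 1 library of the group that has the peak, the other group has none by the rule that chose the regions, and the dotted line marks the lowest score in the lists, 50; the points run from 71.4 to 206.03.

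Strong regions away from genes existed in both directions. The highest-ranked of the higher ones lay 29165 bases from Plpp3, a lipid phosphate phosphatase of vessel walls, and scored 105.7, 115.92 and 158.03 (chr4:105261933-105263147). The highest-ranked of the lower ones lay 37248 bases from Gmds, an enzyme of fucose synthesis, and scored 132.12, 111.87 and 111.62 at 24 h (chr13:32376011-32376627). The next in each direction were 4710 bases from Abhd18 and 137431 bases from Mir3961 (higher), and 3760 bases from Gm14404 and 281709 bases from Gm23831 (lower).

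At gene ends, the higher regions next in rank to that of Ncaph lay at Defa22, Myh1, Atg2a and Tmem174. Myh1, a myosin of fast skeletal muscle, scored 96.53, 130.19 and 82.55 (chr11:67224064-67224744). Atg2a, a lipid transfer protein of autophagy, scored 98.62, 77.05 and 75.69. Defa22 belongs to a cluster of near-identical defensin genes, where reads can be placed at the wrong copy, so its region (98.48, 82.87 and 104.26) is uncertain. On the lower side Arrdc4, an arrestin-like regulator of glucose uptake, Ngfr, the p75 receptor of neurotrophins, and Magi2, a scaffold of cell junctions, followed Gpr176 and Bmp10. The Ngfr region scored 93.13, 61.96 and 79.93 at 24 h (chr11:95566585-95567781).

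Several genes held more than 1 higher region. With all peaks 37 of 21887 protein-coding genes held 2 or more higher regions and 6 held 2 lower ones. At least 1 higher region was held by 658 genes and at least 1 lower region by 233. With equal lists 15 genes held 2 or more higher and 10 held 2 or more lower regions, among 406 and 320 with at least 1. These counts were not adjusted for gene length, and a longer gene has more room for several regions. Synpo2, an actin-binding protein of the muscle Z-disc, held 3 higher regions on chromosome 3, at 123085652, 123153022 and 123172909. Their scores ran from 58.15 to 92.57, none of the 3 had a peak in a sham library, and all 3 met the call with equal lists. Ptprm, a receptor phosphatase of cell-to-cell contacts, had 3 in and beside it, 2 within the gene and 1 in the 2000 bases next to it, with scores from 50.28 to 102.44. The 2 within the gene fell to 1 and 2 of 3 libraries with equal lists. Ttn and Mylk3, the kinase of the cardiac myosin light chain, held 2 each, and so did Runx1, a transcription factor of blood cells. The Mylk3 regions scored 68.69, 69.82 and 65.84, and 51.13, 78.49 and 59.53. Mylk3 and Runx1 were singled out after their values were seen. Pairs of lower regions lay in Fmn2 and Tiam2, regulators of actin, in Adgrv1, a large adhesion receptor, in Nup210 of the nuclear pore and in Ttc28. Smg6 of nonsense-mediated RNA decay had 1 within the gene and 1 in the 2000 bases beside it, overlapping the neighbouring gene Srr.

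At the level of whole genes, a protein-coding gene (with 2000 bases around it) was marked by all 3 libraries at 72 h and by 0 of 3 at 24 h in 177 cases (0.809% of 21887), and the reverse in 37 (0.169%). With equal lists the numbers were 103 (0.471%) and 55 (0.251%). Of the 177 higher genes 92, and of the 37 lower genes 36, met the call both ways. As with regions, equal lists take more from the 72 h group, so these shares cannot be compared. Their median lengths, 17187 and 17416 bases, were near that of all genes (17169). In sham, 50.5% of libraries had a peak at a higher gene and 44.1% at a lower one, against 49.8% over all genes.

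For the gene lists, 2 measures are given: the genes that hold a higher or lower region, and the genes whose span under peaks lay apart. A gene's span under peaks is the percentage of its length, with 2000 bases on each side, that peaks covered in a library; it lay apart where every 72 h library was above, or every 24 h library above, all of the other group. Over all protein-coding genes 658 (3.01%) held a higher and 233 (1.06%) a lower region, or 406 (1.85%) and 320 (1.46%) with equal lists. The span lay apart upward in 1159 (5.3%) and downward in 303 (1.38%), or 2.92% and 2.26% with equal lists. Of 376 genes found for 14 lists, 13 (3.46%) held a higher and 5 (1.33%) a lower region, or 6 (1.60%) in each direction with equal lists. Their span lay apart upward in 26 (6.91%) and downward in 8 (2.13%), or 17 (4.52%) and 12 (3.19%) with equal lists. The shares with a region were near those of all genes, those with the span apart were somewhat above them in both directions, and the listed genes were longer (median 23800 bases). The summed span under peaks was on average larger at 72 h in all 14 lists with all peaks, and 8 of the 14 turned the other way with equal lists: ion channels, acute inflammation, macrophages, fibroblasts, TGF-beta and Wnt, cell cycle, DNA methylation and imprinted genes. In every list the median gene had a peak in as many libraries at 72 h as at 24 h.

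The contractile apparatus had 3 of 26 genes apart upward and 0 downward, or 2 and 0 with equal lists. Tnnt2, cardiac troponin T, had 6.77%, 10.5% and 7.52% of its span under peaks at 72 h and 3.45%, 3.98% and 3.71% at 24 h. Ttn, the giant spring protein of the sarcomere, had 6.68%, 9.35% and 7.33% against 5.29%, 5.98% and 3.35%, and Ldb3 of the Z-disc had 0.964%, 3.07% and 1.17% against 0%, 0.929% and 0%. That the groups did not overlap in these 3 genes follows from the rule that named them, and in Ldb3 they were only just apart. Ttn also held 2 higher regions, the stronger with scores of 70.82, 88.61 and 59.75 (chr2:76944039-76945582). With equal lists Tnnt2 no longer lay apart. Over the whole list 3.97% ± 0.932 of the span was under peaks at 72 h against 3.17% ± 0.441 at 24 h (SD, n = 3 each), which overlapped.

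Ion channels and calcium cycling had 1 of 27 genes apart upward, Gja1, the main gap junction protein of the ventricle. Its span under peaks was 15.2%, 10.0% and 10.6% at 72 h and 9.05%, 8.22% and 5.69% at 24 h. Itpr2, a calcium release channel, held a higher region with 84.5, 70.21 and 70.37. No gene of this list held a lower region.

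Fuel use and mitochondria had 3 of 30 genes apart upward, and they were the muscle and heart forms of lactate dehydrogenase, Ldha and Ldhb, and Ppara, the nuclear receptor that drives fatty acid use. Ldha had 14.4%, 9.91% and 8.61% of its span under peaks at 72 h and 5.20%, 5.75% and 5.30% at 24 h. Ldhb had 4.13%, 5.20% and 7.06% against 3.87%, 2.22% and 0%. With equal lists Ldha stayed apart, and Ldhb and Ppara did not. Esrrg, a nuclear receptor of mitochondrial genes, moved in both directions at different places: a region at chr1:187660674-187662246 was higher (65.96, 77.19 and 84.43) and one at chr1:188064684-188065892 was lower (88.46, 58.13 and 59.18 at 24 h).

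Hypoxia and cell death had 3 of 25 genes apart upward. Egln1, the prolyl hydroxylase that marks HIF for breakdown, had 9.78%, 10.7% and 10.0% of its span under peaks at 72 h and 1.60%, 4.19% and 3.69% at 24 h, a separation that was also there with equal lists. Its relative Egln3 went the other way, with a region that was lower at 72 h (53.99, 88.59 and 57.93 at 24 h). Vegfa, the main growth factor of vessels, had a peak in every 72 h library (111.98, 96.33 and 89.83) and in none at 24 h. The Vegfa peaks were not one region: replicates 1 and 3 shared one place (chr17:46018086-46018975 in replicate 1) and replicates 1 and 2 another (chr17:46024837-46025801 in replicate 2). All 3 sham libraries also had a Vegfa peak.

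In the immune lists the counts were small. Of 26 genes of neutrophils and acute inflammation 0 lay apart upward and 1 downward, Nlrp3 of the inflammasome, at 9.02%, 8.26% and 8.60% against 9.13%, 11.1% and 9.49%. Nfkb1 held a higher region with scores of 82.27, 84.43 and 50.53, in 2 of 3 libraries with equal lists. Of 27 monocyte and macrophage genes 0 lay apart in either direction and 0 held a called region. Lymphocyte genes had 2 of 24 apart upward, the T cell factor Gata3 and the B cell factor Bach2, both of which also held a higher region (82.46, 54.01 and 75.03 for Gata3; 51.1, 61.35 and 52.4 for Bach2). With equal lists both regions fell to 2 of 3 libraries and the Gata3 span no longer lay apart, while that of Bach2 did. The summed span of the lymphocyte list was 2.96%, 2.96% and 2.68% under peaks at 72 h and 1.85%, 2.38% and 2.01% at 24 h; with equal lists it was 2.29%, 2.34% and 2.57% against 1.85%, 1.96% and 2.01%, still apart. These values describe DNA at genes that leukocytes use and not the number of leukocytes.

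Fibroblast and matrix genes were split, with 2 of 30 apart upward and 2 downward and 0 with a called region. Acta2, the smooth muscle actin of myofibroblasts, had peaks at 72 h (53.46, 61.54 and 80.09), in 1 or both of a pair of places, and none at 24 h. It also had one in 1 of 3 libraries of sham and of each earlier time. Cthrc1, a secreted protein of activated fibroblasts, had 0%, 4.25% and 0% of its span under peaks at 72 h and 7.68%, 7.74% and 7.84% at 24 h. Fap, another activation marker, was slightly lower at 72 h (1.11%, 1.36% and 1.39% against 2.09%, 1.64% and 1.69%), and Lum, a collagen-binding proteoglycan, slightly higher. With equal lists Acta2 no longer lay apart, and Cthrc1, Fap and Lum did.

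Signalling by TGF-beta, BMP and Wnt had 3 of 29 genes apart upward and 2 downward, and its ligands differed among themselves. Tgfb3 held a higher region (66.88, 104.54 and 108.92; chr12:86077280-86078612), and its span under peaks was 7.59%, 10.9% and 5.07% at 72 h against 0%, 0% and 3.59% at 24 h. Tgfb2 was the reverse, 3.46%, 4.28% and 4.17% against 5.96%, 4.33% and 5.57%, and so was Inhba, the activin A chain. Of the rest of the pathway, the signal carrier Smad2 (78.23, 95.59 and 54.27) and Ltbp1, which stores latent TGF-beta in the matrix (69.19, 50.37 and 72.13), held higher regions. The Ltbp1 region fell to 2 of 3 libraries with equal lists, and the Smad2 span then no longer lay apart. The Wnt inhibitor Dkk3 lay apart upward. Of the 26 genes of endothelium and vessel growth, Prox1 of the lymphatic vessels lay apart upward, and only with all peaks. The VEGF receptor Flt1 held a higher region (73.7, 54.66 and 66.76) that fell to 1 of 3 libraries under the 50% cover rule.

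Cardiac transcription factors and the fetal gene programme had 4 of 26 genes apart upward (15.4%), the most of the 14 lists in that direction, and 1 downward, or 3 and 2 with equal lists. Gata4, which starts and maintains the cardiac programme, had a peak in each 72 h library (best scores 59.26, 82.87 and 65.18), in 0 of 3 at 24 h and in 0 of the 12 others. The Gata4 peaks lay at different places in the 3 hearts, so they formed no higher region. Myocd, the smooth and cardiac muscle coactivator of SRF, had best scores of 60.54, 102.78 and 58.58. The Myocd higher region scored 60.54, 51.82 and 58.58, since the peak of 102.78 lay elsewhere in the gene. Ankrd1, a stress-responsive protein of the sarcomere, had best scores of 55.87, 73.58 and 80.83. The Ankrd1 higher region at chr19:36118564-36119767 scored 55.87, 53.76 and 80.83. These 3 genes had no peak in any 24 h library. With equal lists the Myocd region fell to 2 of 3 libraries and the Ankrd1 region to 1 of 3, and the Ankrd1 span no longer lay apart. Nfatc4, a calcineurin-driven factor of hypertrophy, was the opposite: its span under peaks was 9.96%, 12.1% and 9.64% at 24 h and 0% in each 72 h library, with a lower region at chr14:55831354-55833108 (62.2, 63.07 and 67.36). The related Nfatc1, a factor of heart valves, lay apart upward at 5.84%, 6.79% and 5.63% against 2.42%, 1.37% and 2.90%. The summed span of the list under peaks was 2.01% ± 0.184 at 72 h against 1.30% ± 0.0464 at 24 h (SD, n = 3 each), a difference of 0.706 points. With equal lists the difference was 0.348 points and the groups were only just apart, the lowest 72 h library at 1.38% and the highest 24 h library at 1.35%. All protein-coding genes had 2.56% ± 0.237 and 2.17% ± 0.236, which overlapped.

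**Figure D4:**
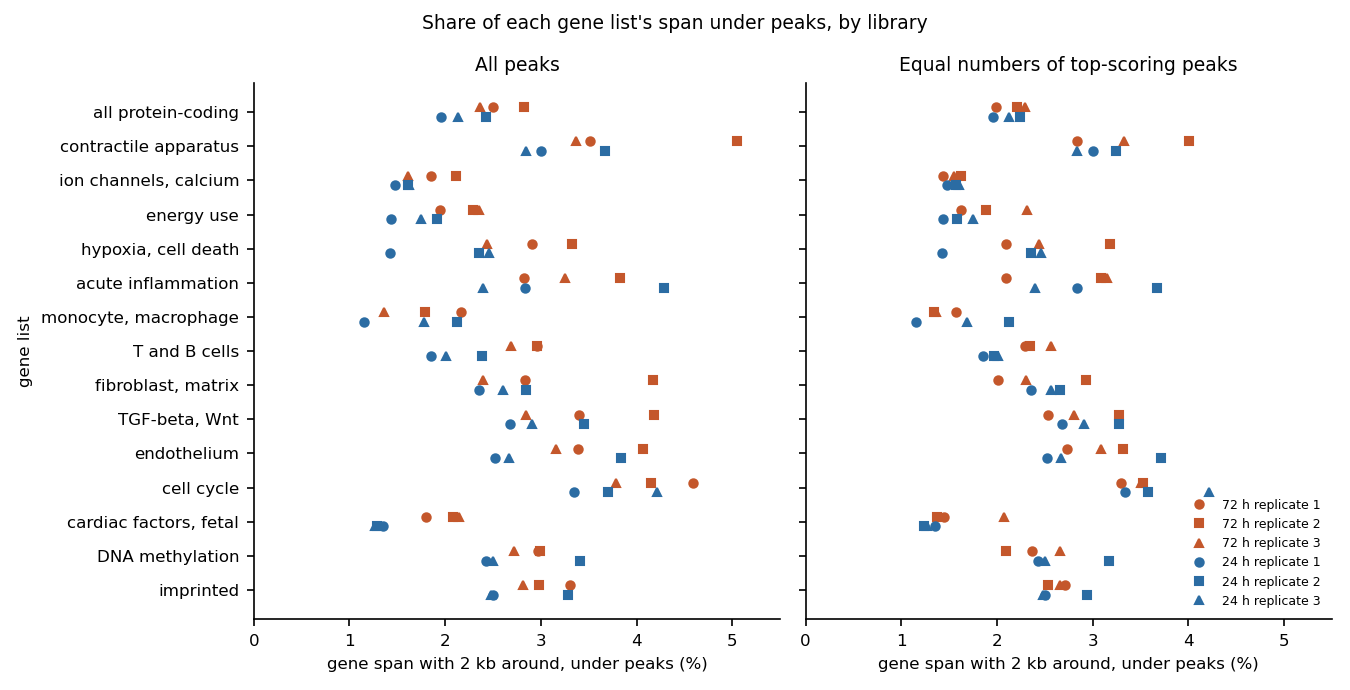
Percentage of each gene list's summed span, with 2000 bases around each gene, under peaks in each of the 6 libraries (points; colour gives the group and shape the replicate), with all peaks (left) and equal lists (right). The 72 h and 24 h points of the cardiac transcription factors do not overlap in either panel (means 2.01% and 1.30% with all peaks, and only just apart with equal lists), nor do those of T and B cell genes, while those of all protein-coding genes overlap in both.

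Writers, erasers and readers of DNA methylation had 0 of 25 genes apart, yet 2 lower regions. One was within Tet1, which oxidises methylcytosine (67.8, 50.37 and 60.18 at 24 h; 2 of 3 libraries with equal lists), and one lay in the 2000 bases beside Dnmt1, which copies methylation after replication (59.62, 67.95 and 50.06). Dnmt3a, which sets new methylation, had a peak in all 6 libraries (98.4, 148.19 and 82.17 at 72 h; 53.29, 71.6 and 56.6 at 24 h). Its best peak scored higher in every 72 h heart, while its number of peaks overlapped (3, 2 and 2 against 1, 3 and 2). Dnmt3a held no called region, and all 3 libraries of sham and of each earlier time had a peak there. Cell cycle genes had 2 of 26 apart upward, Mcm2 and Mcm5, both parts of the replicative helicase. Mcm2 had 11.2%, 8.15% and 10.3% of its span under peaks at 72 h and 6.18%, 7.18% and 6.72% at 24 h. Imprinted genes, expressed from the copy of 1 parent, had 2 of 29 apart upward (Meg3 and Snrpn) and 2 downward, or 2 and 3 with equal lists. Meg3 turned with equal lists, from 12.5%, 11.1% and 9.64% against 7.41%, 6.29% and 6.81% to 6.71%, 3.45% and 3.67% against the same 24 h values. With all peaks the downward pair were the neighbours Peg10 and Sgce, which share a promoter region, so they are not separate observations. Peg10 had 17.5%, 10.8% and 10.6% of its span under peaks at 72 h and 24.0%, 20.4% and 18.0% at 24 h.

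**Figure D5:**
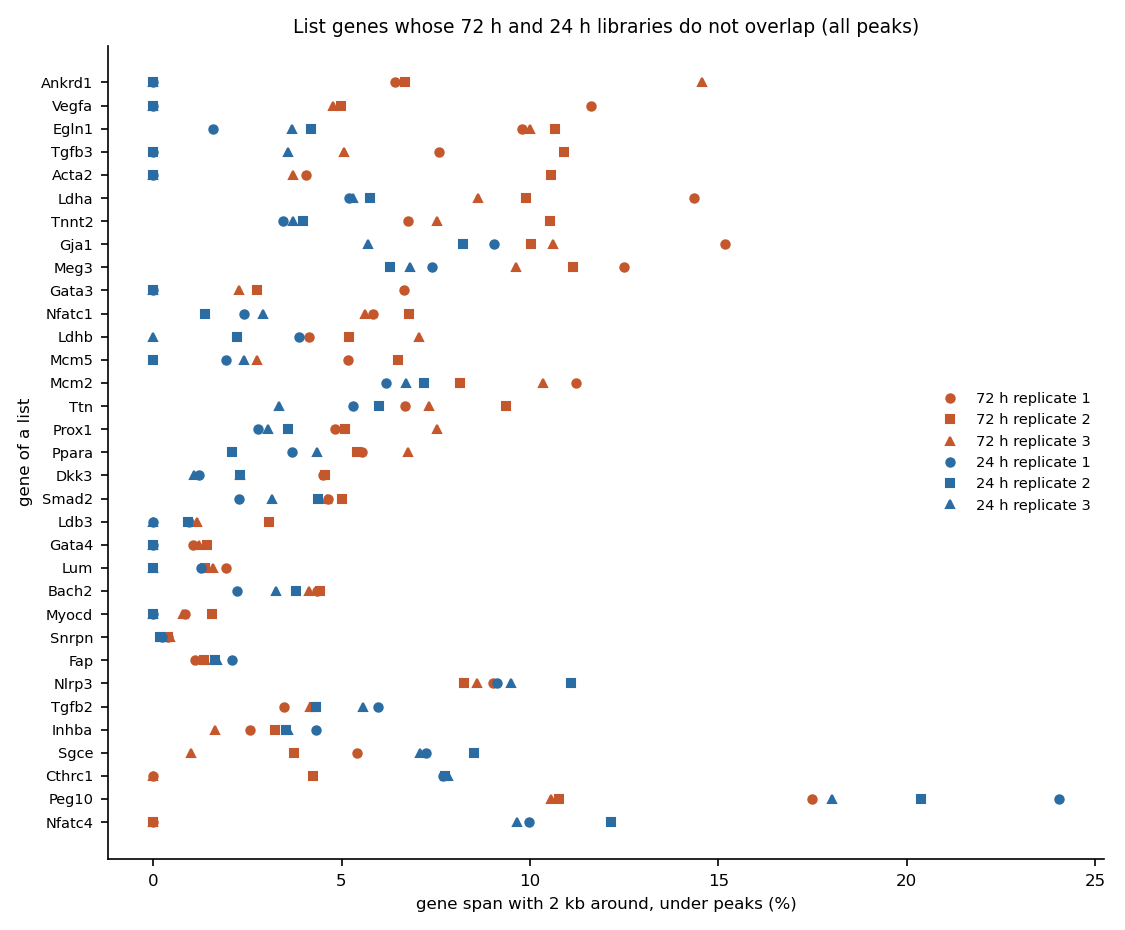
Percentage of the gene, with 2000 bases on each side, under peaks in each of the 6 libraries, for genes of the 14 lists whose groups do not overlap (25 of the 26 above and all 8 below at 72 h); each point is 1 library, and genes are ordered by the difference in means. They were chosen because their groups lie apart, so the plot describes the size of the separation, which among the genes below at 72 h is widest in Nfatc4, at 0% in each 72 h library.

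Other genes fixed whatever their values gave no separation. Tnni3, cardiac troponin I, had a peak in 24 h replicate 1 alone (score 83.9). Myh6, the fast cardiac myosin, had peaks in 2 libraries of each group, and so did Postn, the matrix protein of activated fibroblasts. Ccr2, the receptor of inflammatory monocytes, and the imprinted RNA H19 had no peak in any of the 6 libraries.

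At promoters, taken as the 300 bases from 250 before to 50 after a transcription start, peaks were rare: 3.21% ± 0.362 of 32851 promoters had one at 72 h against 2.66% ± 0.168 at 24 h (SD, n = 3 each; difference 0.544 points, exact permutation p = 0.2). By CpG content, promoters with 5 to 14 CpG had a peak most often, 7.51%, 8.15% and 6.32% at 72 h against 5.68%, 6.35% and 5.85% at 24 h. The groups overlapped, since 72 h replicate 3 lay just below 24 h replicate 2 (difference 1.37 points, exact permutation p = 0.2, adjusted p = 0.3 over 3 classes). With equal lists they were apart, 6.23% against 5.81% (exact permutation p = 0.1). Promoters with 15 or more CpG had peaks in 1.02% ± 0.150 and 0.844% ± 0.172, and those with up to 4 CpG in 2.24% ± 0.278 and 1.95% ± 0.204. Of the 32851 promoters 23 (0.07%) were higher at 72 h and 5 (0.0152%) lower, or 10 (0.0304%) and 5 with equal lists. Only 1 of the 23 had 15 or more CpG, a class that holds 34.6% of all promoters, and 17 of the 23 had 5 to 14, a class that holds 27.3%. Promoters with a peak in all 6 libraries leaned the same way. Of these 245, 147 had 5 to 14 CpG and 49 had 15 or more.

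The promoters below belong to protein-coding genes among these and were picked, after their values were seen, for genes of known role and both directions. They are RefSeq sequences of GRCm38.p6, 5′ to 3′ on the gene's strand, with each CpG in capitals as CG. They show how few sites for CpG methylation such a window can hold, and do not stand for all called promoters. The median was 9 CpG in higher and 8 in lower promoters, against 7 over all promoters.
Myf5: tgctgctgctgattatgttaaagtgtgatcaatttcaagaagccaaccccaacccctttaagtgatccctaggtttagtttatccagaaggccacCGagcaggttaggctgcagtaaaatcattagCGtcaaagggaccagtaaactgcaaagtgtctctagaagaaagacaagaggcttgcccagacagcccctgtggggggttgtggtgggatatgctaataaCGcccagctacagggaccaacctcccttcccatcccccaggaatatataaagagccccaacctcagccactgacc
Speg: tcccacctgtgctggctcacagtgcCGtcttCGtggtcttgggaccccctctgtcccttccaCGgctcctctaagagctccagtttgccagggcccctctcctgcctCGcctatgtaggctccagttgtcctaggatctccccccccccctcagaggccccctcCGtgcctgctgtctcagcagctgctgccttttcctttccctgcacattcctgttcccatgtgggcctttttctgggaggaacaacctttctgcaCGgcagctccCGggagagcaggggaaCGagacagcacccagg
Ank2: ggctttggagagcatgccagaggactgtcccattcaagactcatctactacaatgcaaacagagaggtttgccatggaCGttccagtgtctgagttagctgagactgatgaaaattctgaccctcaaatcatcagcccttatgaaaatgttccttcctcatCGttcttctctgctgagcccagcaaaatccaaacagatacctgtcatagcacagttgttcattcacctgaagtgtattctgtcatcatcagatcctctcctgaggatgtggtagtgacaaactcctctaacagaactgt
Tmem215: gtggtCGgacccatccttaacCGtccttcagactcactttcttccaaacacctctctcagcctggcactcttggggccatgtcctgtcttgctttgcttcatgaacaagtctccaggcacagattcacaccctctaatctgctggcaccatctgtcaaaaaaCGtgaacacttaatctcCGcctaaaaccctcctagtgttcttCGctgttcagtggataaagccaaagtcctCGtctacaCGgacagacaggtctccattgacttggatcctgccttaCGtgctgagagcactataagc
Alppl2: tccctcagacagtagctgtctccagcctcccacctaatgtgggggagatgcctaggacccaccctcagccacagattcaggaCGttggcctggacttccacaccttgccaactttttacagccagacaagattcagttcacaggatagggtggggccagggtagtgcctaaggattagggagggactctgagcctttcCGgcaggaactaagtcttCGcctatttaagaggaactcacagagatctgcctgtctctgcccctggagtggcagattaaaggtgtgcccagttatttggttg
Myf5 starts the skeletal muscle programme and is not a gene of the heart. The Myf5 window (chr10:107486085-107486384, minus strand) holds 3 CpG and had scores of 122.86, 55.29 and 64.71 at 72 h, with a peak in 0 of 3 sham libraries. Speg is a kinase of the muscle junctions that release calcium. The Speg window (chr1:75385360-75385659, plus strand), at 1 of 4 listed starts, holds 8 CpG and scored 52.06, 66.6 and 89.66. Ank2, ankyrin-B, anchors ion transporters in heart muscle cells. The Ank2 window (chr3:126943337-126943636, minus strand), also 1 of 4 starts, holds 2 CpG and scored 59.99, 58.22 and 56.4. Its printed bases can be read as protein code from end to end without a stop. The Ank2 window may thus lie in coding sequence within the gene, and it does not stand for the other Ank2 starts. Tmem215, a membrane protein, met the call with equal lists too, at 77.01, 82.02 and 58.35, with 8 CpG (chr4:40471930-40472229, plus strand). Alppl2, an alkaline phosphatase, was lower, with 103.6, 134.6 and 167.66 at 24 h and 3 CpG (chr1:87089879-87090178, minus strand). At least 8 CpG were held by 48.7% of all promoters and at least 3 by 76.7%, so all 5 windows were of middle or low CpG content. With equal lists Myf5, Speg and Ank2 were left with 2 of 3 libraries at 72 h.

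MicroRNA hairpins rarely lay under a peak. Of 1005 hairpins with a position 872 had no peak in the 6 libraries and 16 had one in all 6. A peak in 3 libraries against 0 was found at 3 (0.299%) in the higher and 2 (0.199%) in the lower direction, or 2 in each with equal lists. Their mature sequences from RefSeq are shown with the seed, bases 2 to 8, in capitals, because the seed sets which transcripts a microRNA can pair with.
mmu-miR-6338: cUGGUUUCucucauuugugcu
mmu-miR-6927-3p: cCUGAGCUggcuccccugcag
mmu-miR-6927-5p: gUGAGGGGauccagcccaggcu
mmu-miR-7226-3p: uGACACAGccauucucugagcag
mmu-miR-7226-5p: gCCAGGGAaguugauugugugaaggg
mmu-miR-1981-3p: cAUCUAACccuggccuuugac
mmu-miR-1981-5p: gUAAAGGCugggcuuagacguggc
mmu-miR-7683-3p: uGGAAAGGuggaacacggaac
mmu-miR-7683-5p: uUCCGUGUuucgucugaccacu
No 2 of these seeds were alike. The peak over Mir7226 scored 84.3, 72.93 and 78.66 at 72 h, that over Mir6338 71.98, 81.42 and 55.91, and that over Mir6927 90.29, 51.76 and 52.64. Mir1981 scored 58.54, 67.63 and 67.73 at 24 h and had a peak in 3 of 3 sham libraries as well. Mir7683 scored 51.31, 90.43 and 51.05. Whether the DNA of a hairpin is methylated says nothing here about the level of its RNA, which was not measured in these libraries.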

How the data were processed

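The data were the peak lists deposited for 18 mouse heart MeDIP-seq libraries, of which 6 were compared. Per the submitters' processing notes the tools were Bowtie2 and MACS2 and the build was mm10. Versions, options and whether an input control was used are not given in the sources used here. Each deposited list, called on 1 library, gives chromosome, start, end, name and the authors' score, which was used to rank, filter and describe peaks. Read counts were not used here, so depth is unknown and no counting interval can be given.

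Gene positions came from RefSeq on GRCm38.p6, the assembly named mm10. Windows at CpG-rich starts touched a peak in 1.34% of cases, against 9.24% and 8.52% when moved by 20000 bases, so the lists and the table share a build. Lists were merged where peaks overlapped by at least 1 base, and a region or gene was called at 3 libraries against 0. Group means of library measures were compared by a two-sided exact permutation test with Benjamini-Hochberg adjustment over 6 measures. The scripts ran in Python 3.11.15 with numpy 2.4.6, pandas 2.3.3 and scipy 1.17.1, and were tested on simulated data. Per the labels each group held 3 mice, so p-values measure the spread between 3 mice.

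Named were, in each direction, the 12 genic and the 3 intergenic regions of highest rank (by the lowest of the 3 scores, and called with equal lists too), the 5 genes with the most regions, up to 4 genes of each list with a region, the 5 genes with the highest-ranked region at a gene end, and Tnni3, Myh6, Postn, Ccr2, H19 and Dnmt3a. The members, the lists and the tests were chosen with earlier results of these data known. Alternatives were peak score, region cover, merging gap, windows, peak midpoints, list length, left-out libraries and a replicate block. A CpG count of the regions themselves was planned and not run, since no genome sequence was used. Promoter windows with strand were added after seeing the data. Results for a few of the genes that the rule names are not reported here.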

Additional observations from a re-analysis of the deposited data

How the results depend on the processing

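Across the alternatives run, the shares of peaks in genes and at gene ends kept their direction in every setting, and no count of higher or lower regions or genes fell to 0. Equal lists turned the direction of covered length (-0.133 Mb), of the similarity within groups (-0.00172), of the summed span of 8 of 14 gene lists and of promoters with up to 4 CpG (0.288 to -0.0373 points). Merging across gaps of 500 bases gave 1098 higher and 442 lower regions. The gene-end difference was 0.266 points with the window from 1000 bases outside to the gene's edge and 0.383 points by peak midpoints. With a score of at least 70, 722 regions were higher and 210 lower, or 325 and 316 with equal lists; fewer peaks enter by construction. Leaving out 1 library at a time, the difference between 72 h and 24 h ran from 5271 to 11293 peaks, from 3.67 to 9.29 Mb of covered length, from -64 to 29.5 bases of median width (29.5 without 72 h replicate 1 and 5 without 24 h replicate 2), from 2.02 to 4.46 of median score, from 0.394 to 0.550 points at gene ends, from 0.938 to 2.03 points in genes and from -0.00296 to 0.0042 in similarity. In the same setting there were 1929 to 3749 higher and 841 to 1542 lower regions (1246 to 2031 and 1249 to 2001 with equal lists), and 294 to 422 higher and 88 to 108 lower genes (214 to 250 and 130 to 160 with equal lists), because only 2 libraries were asked for on one side. Replicate numbers carried no stated pairing. Same-numbered libraries correlated by 0.0366, 0.0163 and 0.0340 in their deviations, and each correlated best with its own number, a hint from the data only. A replicate block by sign flips gave an exact permutation p = 0.25, its smallest value, for the differences of 7555 peaks, 6.51 Mb, 2.92 in score, 0.472 points and 1.49 points. For -19 bases of width the sign flips gave an exact permutation p = 0.75. With 3 libraries to a group neither test can reach 0.05, so the block could change no call. Of the 44 named higher regions 23 kept 3 against 0 at a score of 70 or more, 41 with 50% cover and 34 with equal lists. Of the 32 named lower ones 15, 32 and 31 did. In each direction the 12 genic and 3 intergenic regions had to pass equal lists and were ranked by their lowest score. Part of the numbers with equal lists and at a score of 70 thus follows from the choice. The numbers with equal lists cannot be compared between the directions, since that cut takes more peaks from the 72 h group.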

Other observations

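Some regions had a peak in all 3 hearts at 72 h and in none of the other 15 libraries of the series. There were 96 among the 1094 higher regions, of which 35 met the call with equal lists as well. Among the 443 lower regions 25 had a peak at 24 h alone, of which 21 did, equal lists keeping lower calls more easily. For comparison, 668 of the 12574 mixed regions and 23172 of all 114917 regions had no peak in the sham and earlier libraries. Ranked by the lowest of the 3 scores among those that met the call both ways, the next after Hoxa2 lay in B3gnt3, a glycosyltransferase (71.91, 78.3 and 77.85), and in Tns1, a tensin that links integrins to actin (71.21, 92.01 and 99.59). Foxp1, a transcription factor of heart and lymphocyte development, held one with 71.96, 65.84 and 63.61. These genes were singled out after their values were seen, and no test was run on them.

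Of the 177 higher genes, 11 had a peak in every 72 h heart and in no other library. Of the 37 lower genes, 2 (Ufm1 and Clns1a) had one in every 24 h heart and in no other library. How many of all genes lacked a peak in the sham and earlier libraries was not counted. For sham alone, no library had a peak at 26 of the 177 higher, 5 of the 37 lower and 8003 of all 21887 genes. Of all genes, 6420 also had no peak in the 6 libraries compared. Cxcl10, the interferon-induced chemokine that draws T cells, was one of the 11: its peaks lay at the same place in all 3 hearts, over the gene, and scored 56.46, 52.72 and 65.1, near the minimum of 50. With equal lists the Cxcl10 peak was left in 1 of 3 libraries. Hoxa5, in the same cluster of homeobox genes as Hoxa2, was another, at 52.29, 56.16 and 52.77, and also fell to 1 of 3. Ddit4l, an inhibitor of mTOR signalling, scored 63.72, 79.9 and 61.43 and kept all 3. Egr2, an immediate early transcription factor, was stronger, at 120.97, 83.14 and 100.24 against no peak at 24 h, but had a peak in 1 of 3 sham libraries.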
